A study of Mus musculus with 11 samples.

Results

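CD49d+ and CD73+ cells taken at day 6 and day 9 of reprogramming, which the study calls poised, were compared with the mouse embryonic fibroblasts (MEF) from which reprogramming starts. Each of the 4 poised arrays was set against the single MEF array, and a gene was counted where its log2 intensity differed by at least 1 unit (2-fold) in the same direction on all 4. The comparison uses 5 of the 11 arrays of the series. Of 22180 named genes, 13436 lay above the lowest printed intensity on at least 1 of the 5 arrays, and the other 8744 were at that floor of 100 on all 5. Of the 13436, 987 (7.35%) were at least 2-fold higher and 1034 (7.7%) at least 2-fold lower on all 4 poised arrays than in MEF.

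The poised arrays hold RNA of passage 4 MEFs carrying Rosa-rtTA +/-, an allele that makes the doxycycline-dependent activator rtTA, after infection with tetO-driven Oct4, Sox2, Klf4 and Myc. Doxycycline was added 1 day after infection, which was counted as day 0, and the cells were sorted in 2 rounds on CD49d or CD73 at day 6 or day 9. The MEF array holds RNA of passage 4 Rosa-rtTA +/- MEFs, for which the labels list neither infection nor sorting and do not state whether doxycycline was given. The series also has CD73- cells, called non-poised, and unsorted cells of both days, the partially reprogrammed line SC4 and V6.5 embryonic stem cells (ESC), with 1 array per group throughout. Infection, doxycycline, days in culture and sorting all differ between the poised cells and MEF and cannot be told apart. There is no MEF replicate, so no test of poised cells against MEF was possible, and the 4 poised arrays are 2 gates at 2 days, not replicates. Nothing in the labels says whether the arrays come from separate cultures.

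CD73 is the ecto-5'-nucleotidase encoded by Nt5e, which makes adenosine from extracellular AMP, and CD49d is the integrin alpha 4 chain encoded by Itga4. Fibroblasts of the embryo are mesenchymal cells that deposit collagen and other matrix, carry contractile actin bundles and respond to TGF-beta. Reprogramming by Oct4, Sox2, Klf4 and Myc is known to shut down this mesenchymal programme, speed up division and switch on epithelial genes early, while most genes of the stem cell network follow late.

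The promoters of 5 genes are printed as examples from the main groups described here, and their motifs need not be typical of these groups. A TATA box was found in 1 of 8 matched promoters of the named genes with MEF at the floor (12.5%, against 14.2% of all promoters), that of Nr0b1. An AP-1 motif was found in 1 of 7 for the named genes with all poised arrays at the floor, that of Mmp13. Of all promoters 7.92% held it. These single matches, each in a printed gene, say nothing about their groups. Nr0b1 was the gene with the largest fold over an MEF value at the floor, Cdc6 (a loader of the replicative helicase) stands for the S phase genes, Hmmr (a spindle protein) for the mitotic genes, Myl9 (a myosin light chain) for the contractile genes and Mmp13 (an interstitial collagenase) for genes at the floor on all 4 poised arrays. The sequences come from RefSeq on build GRCm38.p6, run 5′ to 3′ on the gene's strand and cover 250 bases before to 50 bases after the annotated start. They lie at chrX:86191525-86191824 (plus strand), chr11:98907901-98908200 (plus strand), chr11:40733388-40733687 (minus strand), chr2:156775214-156775513 (plus strand) and chr9:7272264-7272563 (plus strand). Capitals mark a TATA box in Nr0b1, an E2F motif in Cdc6, a CHR (cell cycle genes homology region) motif in Hmmr, a CArG box, the motif of serum response factor, in Myl9, and an AP-1 motif in Mmp13.
Nr0b1: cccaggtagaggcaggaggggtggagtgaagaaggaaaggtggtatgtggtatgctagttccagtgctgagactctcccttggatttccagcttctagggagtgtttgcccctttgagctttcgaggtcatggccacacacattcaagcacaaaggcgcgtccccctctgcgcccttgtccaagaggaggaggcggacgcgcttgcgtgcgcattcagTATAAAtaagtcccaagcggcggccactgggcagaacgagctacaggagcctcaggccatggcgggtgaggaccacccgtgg
Cdc6: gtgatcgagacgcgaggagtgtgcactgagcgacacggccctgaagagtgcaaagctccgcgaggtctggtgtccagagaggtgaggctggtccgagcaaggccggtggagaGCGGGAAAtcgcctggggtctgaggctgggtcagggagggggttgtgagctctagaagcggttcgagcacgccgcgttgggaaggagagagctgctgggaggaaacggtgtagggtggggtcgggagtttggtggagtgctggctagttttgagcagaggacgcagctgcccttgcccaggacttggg
Hmmr: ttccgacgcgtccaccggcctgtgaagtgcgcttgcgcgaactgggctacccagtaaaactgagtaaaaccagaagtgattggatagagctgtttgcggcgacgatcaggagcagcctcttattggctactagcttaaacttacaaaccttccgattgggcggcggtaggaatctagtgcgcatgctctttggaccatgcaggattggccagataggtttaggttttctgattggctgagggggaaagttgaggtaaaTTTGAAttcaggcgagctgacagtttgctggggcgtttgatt
Myl9: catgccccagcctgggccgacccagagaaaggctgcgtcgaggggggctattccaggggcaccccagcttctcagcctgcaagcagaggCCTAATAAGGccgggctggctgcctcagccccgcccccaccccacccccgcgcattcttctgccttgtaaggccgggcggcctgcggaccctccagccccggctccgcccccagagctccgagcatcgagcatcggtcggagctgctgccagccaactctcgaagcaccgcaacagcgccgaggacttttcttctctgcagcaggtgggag
Mmp13: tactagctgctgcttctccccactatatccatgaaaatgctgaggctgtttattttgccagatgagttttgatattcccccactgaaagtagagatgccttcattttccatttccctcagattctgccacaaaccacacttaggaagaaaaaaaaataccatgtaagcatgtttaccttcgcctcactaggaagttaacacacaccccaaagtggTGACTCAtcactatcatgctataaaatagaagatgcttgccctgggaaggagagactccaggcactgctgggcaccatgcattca

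The capitals of Nr0b1 lie 32 bases before the start, those of Cdc6 138 bases before it and those of Myl9 161 bases before it. The CHR motif of Hmmr lies 9 bases after the start, with 5 CCAAT boxes upstream, and the AP-1 motif of Mmp13 lies 35 bases before the start, with a TATA box in between. Both strands were searched. The CHR motif was TTTGAA, the CCAAT box its own name, the TATA box TATAAA and the AP-1 motif TGANTCA, while the CArG box is given by its name alone. The E2F motif was TTT followed by 2 bases, each cytosine or guanine, and then CGC. Sites of different motifs could overlap. A match is a description of these letters only. Cdc6, Hmmr and Myl9 were picked by rank of fold among the members of their lists whose promoter held the motif marked. Its presence in them was thus fixed by the choice.

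The 5 arrays were alike in their overall distribution. Between 52.14% and 53.57% of the 41345 probe sets were at the floor on each, the median intensity above the floor ran from 347.0 to 388.3, and 11824 to 12633 named genes lay above it. Intensities are linear values in arbitrary units. A value at the floor is an upper bound, so a fold against it is given as at least that value. In bulk RNA, fewer cells of a type and less RNA per cell cannot be told apart.

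The 4 markers taken for poised cells (Nr0b1, Nt5e, Gna14 and Itga4) were all higher on the 4 poised arrays than in MEF, with a summed intensity of 10500 to 12500 against 1030. They were not all particular to poised cells. The partially reprogrammed line SC4 had 3737.9 for Nt5e and 3545.7 for Gna14, above every poised array. It had 4116.0 for Nr0b1, within the poised values, and 566.5 for Itga4, below them. Nt5e and Itga4 were themselves the sorting markers. Nt5e had 2828.3, 3438.1, 2704.1 and 3658.0 on the day 6 CD49d+, day 6 CD73+, day 9 CD49d+ and day 9 CD73+ arrays (the order used from here on), against 495.3 in MEF, which is 5.46- to 7.39-fold. Itga4 had 1859.1, 1082.5, 1588.0 and 1205.7 on the poised arrays, against 332.6 in MEF, and was thus also above MEF in the gate that had not been sorted on CD49d. Vcam1, a cell surface ligand of the integrin that contains CD49d, was lower on all 4 poised arrays, at 924.9, 524.7, 526.1 and 232.3 against 1860.6 in MEF, but it did not reach 2-fold on every poised array after quantile normalization.

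Of the 8 fibroblast markers, 7 were at least 2-fold lower on all 4 poised arrays, and the summed intensity was 4260 to 8550 there, against 33500 in MEF. The exception was Prrx1, a mesenchymal homeobox gene, with 3891.7, 3952.6, 3124.8 and 2991.4 on the poised arrays against 5138.3 in MEF, 1.3- to 1.72-fold lower. All 6 ESC markers (Nanog, Esrrb, Zfp42, Dppa5a, Dppa3 and Tdgf1) were at the floor on all 5 arrays, while their summed intensity on the ESC array was 14600. Tdgf1 and Nanog made up most of that sum, at 7274.6 and 5019.0, while Dppa5a and Dppa3 had only 147.8 and 130.9 on the ESC array, so that those probe sets check little here. For macrophages and blood, Ptprc, Csf1r, Adgre1 and Tyrobp were at the floor on all 5 arrays. The summed intensity of the 6 markers of that type was 1060 to 1100 on the poised arrays and 872 in MEF. The 5 endothelial markers summed to 500 to 559 on the poised arrays against 502 in MEF, and the 4 epidermal markers found on the array to 525 to 631 against 537. The sums were lower for 4 skeletal muscle markers (411 to 549 on the poised arrays, 946 in MEF) and for 3 adipocyte markers (300 on each poised array, which is their floor, against 621 in MEF). The part of such cells in the MEF values was not tested.

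The 4 reprogramming factors could be read only in part, since the position of the probe sets relative to the introduced sequences cannot be read from the labels. Klf4 had 3997.0, 3930.0, 3970.6 and 3900.0 on the poised arrays against 704.5 in MEF, 5.54- to 5.67-fold higher, and introduced and endogenous transcripts cannot be told apart. Myc had 241.4, 195.1, 236.4 and 165.4 against 467.8 in MEF and fell short of 2-fold lower on both CD49d+ arrays. It reached 2-fold lower on all 4 poised arrays with the arrays centred and with quantile normalization. Sox2 was at the floor on all 5 arrays, and Pou5f1 (Oct4) had 115.5 to 142.0 on the poised arrays against 105.2 in MEF. The Pou5f1 probe set gave 122.7 on the ESC array, a cell type known for high Pou5f1, so it checks nothing here.

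The largest difference above MEF was that of Nr0b1 (Dax1), an orphan nuclear receptor known from stem cells and from the adrenal gland. It had 3907.6, 5284.5, 4754.9 and 5280.3 on the poised arrays against the floor in MEF, at least 39.1- to 52.8-fold. In all, 127 of the 987 higher genes had MEF at the floor, and 860 were above the floor on all 5 arrays. Next by their lowest poised intensity among genes with MEF at the floor came Perp, a membrane protein of desmosomes and a known p53 target, with 3125.3, 3294.9, 3400.2 and 3733.7, at least 31.3-fold. Ano1, a calcium-activated chloride channel, had 2629.8, 2957.7, 2675.2 and 3432.2, and Podxl, the sialomucin podocalyxin, had 2354.9, 2411.6, 2758.4 and 2878.5. For each of these genes the 4 poised values lay within 1.5-fold of each other and all were at least 23.5-fold above the MEF value.

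Gna14, the alpha subunit of a Gq-class G protein, had 1856.8, 1653.5, 1799.3 and 2367.0 on the poised arrays, at least 16.5-fold above MEF. Ceacam1, an adhesion molecule of the immunoglobulin class, had 1712.7, 2127.9, 1684.9 and 3549.6, with the day 9 CD73+ array highest. Dsp, which encodes desmoplakin, the link between desmosomes and keratin filaments, had 1299.1, 1295.5, 1499.8 and 1509.5, at least 13.0-fold. Trh, the precursor of thyrotropin-releasing hormone, spread most among these 10 genes. It had 3838.9 and 4344.0 on the CD49d+ arrays and 1219.4 and 2713.3 on the CD73+ arrays, at least 12.2- to 43.4-fold above MEF. Itpk1, an inositol phosphate kinase, and Cdca7l, a relative of the Myc target Cdca7, completed the 10 at no less than 10.9-fold.

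**Figure D1:**
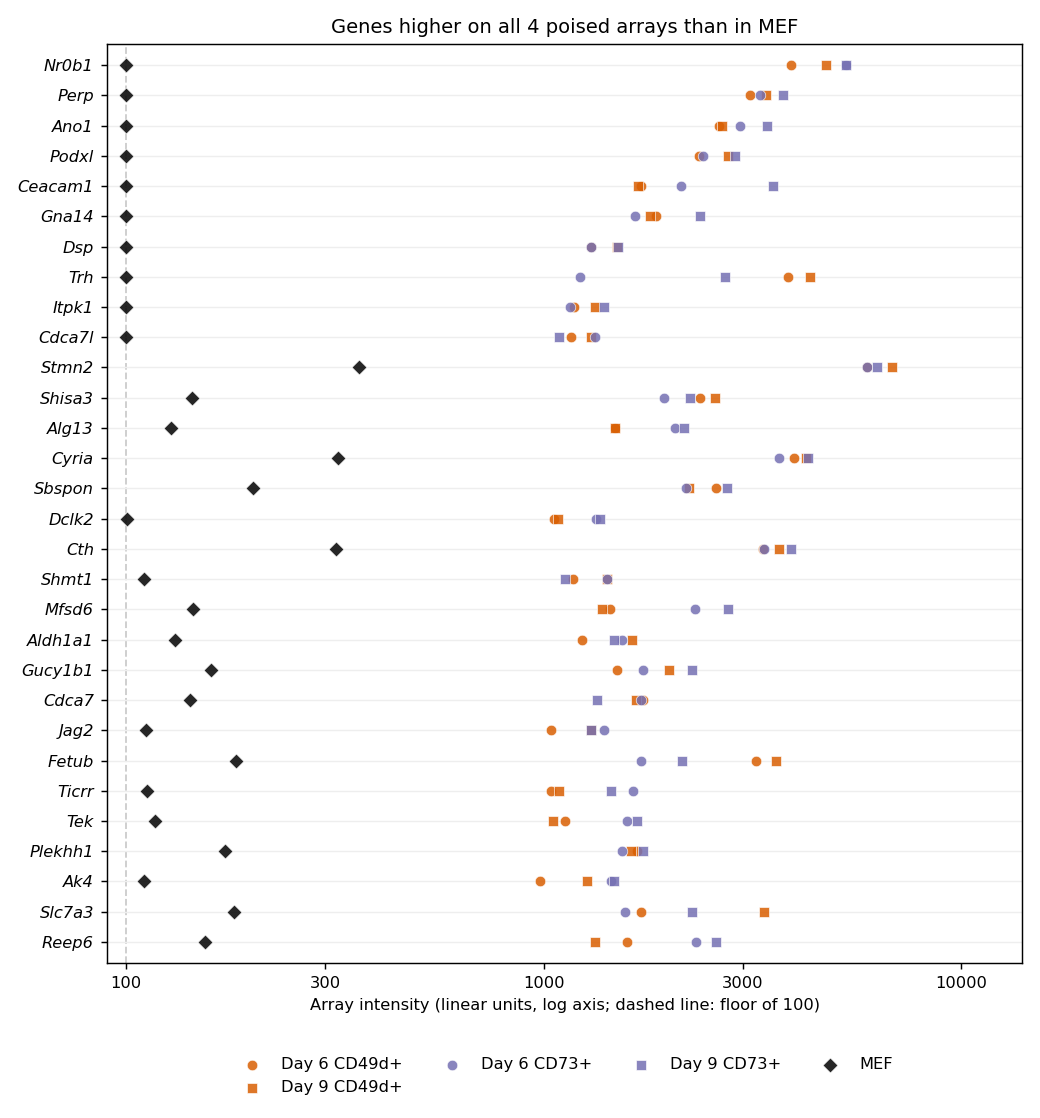
Array intensity (linear units on a log axis) of the 30 named genes higher on the poised arrays than in MEF, with 1 point per array. Orange points are CD49d+ arrays, purple points CD73+ arrays, circles day 6, squares day 9 and black diamonds MEF. The 10 genes at the top have MEF at the floor of 100 (dashed line), and in each of the 30 genes the 4 poised points lie to the right of the MEF point.

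Among genes above the floor on all 5 arrays, Stmn2 led. This microtubule regulator of neurons had 5955.9, 5958.9, 6836.9 and 6272.5 on the poised arrays against 361.1 in MEF, a mean log2 difference of 4.11 ± 0.09 (SD over the 4 poised arrays, as in all ± values against MEF below). Shisa3, a protein that attenuates Wnt and FGF receptors, had 2369.5, 1943.1, 2575.0 and 2241.5 against 144.4 in MEF, 3.97 ± 0.17. Signalling genes in this group of 20 included Jag2, a Notch ligand (1039.4 to 1392.5 on the poised arrays, 111.6 in MEF), Tek, the angiopoietin receptor (1054.8 to 1673.3, 117.4 in MEF), and Gucy1b1, a subunit of the nitric oxide receptor guanylate cyclase (1501.2 to 2265.7, 159.6 in MEF). Enzymes of metabolism were Cth, which makes cysteine (3348.7 to 3915.9 on the poised arrays, 317.8 in MEF), Shmt1, a folate enzyme that splits serine (1125.8 to 1416.1, 110.7 in MEF), Aldh1a1, which makes retinoic acid (1237.7 to 1624.0, 131.1 in MEF), and Ak4, a mitochondrial adenylate kinase (983.0 to 1474.6, 110.7 in MEF). For all of these the lowest poised value was at least 8.88-fold above MEF. Alg13, Cyria, Sbspon, Dclk2, Mfsd6, Cdca7, Fetub, Ticrr, Plekhh1, Slc7a3 and Reep6 completed the 20.

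Genes of cell division were higher on the poised arrays as a group. Of 51 S phase genes measured, 41 were at least 2-fold higher on all 4 poised arrays and none lower, with a median log2 difference of 1.72. Over all 13436 genes the median was 0.0257. Of 56 genes of G2 and M phase, 39 were higher and none lower, with a median of 1.59. The shares of higher members were 80.4% and 69.6%, against 7.35% of all genes. With the arrays centred, 33 S phase genes and 35 genes of G2 and M phase were higher. With quantile normalization 40 and 37 were.

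Mcm10, which helps to start replication forks, had 952.7, 987.5, 1071.7 and 962.2 on the poised arrays against 114.4 in MEF, 3.12 ± 0.08 on the log2 scale. Blm, a helicase that resolves recombination intermediates, had 850.2, 1052.2, 983.7 and 985.9 against 121.9 in MEF. Lig1, the ligase that joins Okazaki fragments, had 1049.7, 1121.3, 1200.9 and 929.5 against 141.8 in MEF, and Uhrf1, which guides DNA methylation to replicated DNA, had 1690.4, 1705.2, 1953.3 and 1666.4 against 277.4 in MEF. In all 4 genes the poised arrays lay close together and far above MEF. Cdc6, whose promoter is printed above, had 682.7, 768.3, 873.7 and 589.0 against the floor in MEF.

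In mitosis, Nusap1, a spindle microtubule protein, had 2041.7, 2170.2, 2186.8 and 2159.9 on the poised arrays against 281.5 in MEF, 2.93 ± 0.05 on the log2 scale. Hmmr had 529.4, 644.8, 620.7 and 613.4 against the floor in MEF, at least 5.29-fold. Bora, an activator of the kinase Aurora A, and Bub1b, a spindle checkpoint kinase, were 5.86- to 6.91-fold and 4.66- to 8.07-fold above MEF. The 10 S phase members that did not reach 2-fold on every poised array included E2f1, a transcription factor of this phase, at 563.3 to 592.0 on the poised arrays against 597.7 in MEF.

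The motifs for which Cdc6 and Hmmr were picked were more frequent in promoters of their groups than in all promoters. The E2F motif was found in 14 of 36 matched promoters of the higher S phase genes (38.9%), against 2.33% of all 27025 promoters of that length. The CHR motif was found in 23 of 32 matched promoters of the higher G2 and M genes (71.9%), against 18.2% of all promoters. CCAAT boxes were in 63.9% and 68.8% of the promoters of these groups, against 38.0% of all. Over all higher genes with a promoter in the table (797 of 987), 7.15% held the E2F motif and 18.3% the CHR motif.

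Of 23 genes of p53, cell cycle inhibition and senescence, 2 were higher (8.7%, near the 7.35% of all genes) and 5 lower (21.7%, against 7.7% of all genes) on all 4 poised arrays. The 2 higher ones were Perp, described above, and Rb1, which holds back entry into S phase, with 3506.0, 4064.2, 3097.1 and 3907.8 on the poised arrays against 889.1 in MEF. Cdkn2b, an inhibitor of cyclin D kinases, had 388.3, 346.0, 339.2 and 337.4 against 1209.9 in MEF, and Cdkn1c, another inhibitor, which is imprinted, had 146.3, 123.2, 149.4 and 122.6 against 472.2 in MEF. The other lower members were Cdkn2c and the secreted IGF-binding proteins Igfbp3 and Igfbp7. Cdkn1a, the p53 target p21, had a mean log2 difference of -0.03 and Cdkn2a 0.18.

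Chromatin genes were higher in part. The 37 DNA and histone modifiers had a median log2 difference of 0.83. Of these, 10 (27.0%, against 7.35% of all genes) were higher on all 4 poised arrays and none lower. Besides Uhrf1 they included Wdr5, a shared subunit of histone H3 methyltransferases, with 1532.1, 1630.6, 1735.4 and 1522.6 on the poised arrays against 310.1 in MEF. Tet2, an enzyme that oxidises 5-methylcytosine, had 2544.9, 2564.7, 2501.8 and 3044.0 against 523.3 in MEF, and Ezh2, the methyltransferase of Polycomb repressive complex 2, had 2268.0, 2464.8, 2411.9 and 2251.0 against 695.7 in MEF. The others were Dnmt1 and Dnmt3b (DNA methyltransferases), Suz12, Jarid2 and Mtf2 (partners of Ezh2) and Setdb1 (a histone H3 lysine methyltransferase). For Dnmt3b and Mtf2 the MEF value was at the floor. Dnmt3b and Jarid2 no longer reached 2-fold on every poised array with the arrays centred.

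The stem cell network was represented by few members. Of 36 network genes on the array, 15 were at the floor on all 5 arrays and 21 were measured. Of the 21, 5 were higher on all 4 poised arrays and 1 lower. The shares were 23.8% and 4.76%, against 7.35% and 7.7% of all genes. Besides Nr0b1, the higher ones were Fgf4, Etv5, L1td1 and Etv4. Fgf4, a growth factor of the early epiblast, had 926.9, 808.7, 1265.7 and 1204.8 on the poised arrays against the floor in MEF, at least 8.09-fold. Etv5, an ETS factor induced by FGF signalling, had 2058.0, 1848.2, 2193.1 and 2132.4 against 255.0 in MEF, and its relative Etv4 had 506.9, 402.4, 540.8 and 431.5 against 159.2 in MEF. L1td1, an RNA-binding protein of stem cells, had 391.5 and 364.7 at day 6 and 724.6 and 612.0 at day 9 (CD49d+ then CD73+), against the floor in MEF.

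Klf2, a Krüppel-like factor of naive stem cells that fibroblasts also make, was the lower one, with 122.1, 114.5, 136.0 and 127.2 on the poised arrays against 294.3 in MEF. Sall4, a zinc finger factor of stem cells, had 454.3, 434.1, 747.7 and 583.6 against 251.2 in MEF and missed 2-fold on the day 6 arrays. Epcam, an epithelial and stem cell adhesion molecule, had 286.5, 263.2, 787.1 and 400.7 against 174.2 in MEF, and E-cadherin (Cdh1) had 260.1, 304.6, 558.5 and 487.6 against 205.8 in MEF. For these last 3 genes both day 9 arrays were more than 2-fold above MEF and both day 6 arrays were not.

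Of 23 FGF and ERK response genes, 5 were higher on all 4 poised arrays (Etv5, Etv4, Etv1, Dusp14 and Spred2) and 3 lower (Epha4, Spry1 and Ier3). The shares were 21.7% and 13.0%, against 7.35% and 7.7% of all genes. With the arrays centred, 4 were higher, without Spred2, and 5 lower. Etv1, another ETS factor of the same class, had 694.9, 723.7, 632.2 and 913.9 on the poised arrays against 105.7 in MEF, and Dusp14, a phosphatase of MAP kinases, had 989.3, 1077.7, 927.9 and 1484.1 against 214.5 in MEF. Spry1, a feedback inhibitor of receptor tyrosine kinases, had 681.4, 523.1, 546.0 and 662.1 against 1882.8 in MEF. Members of this feedback list thus lay on both sides of MEF.

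Epithelial genes were higher in part, with members of desmosomes and hemidesmosomes among them. Of 40 measured, 10 (25.0%, against 7.35% of all genes) were higher on all 4 poised arrays and 1 lower. The median log2 difference of the 40 was 0.29. Itga6, the integrin alpha 6 chain, had 1277.9, 1224.3, 1446.7 and 1476.5 on the poised arrays against 217.3 in MEF, and its partner in hemidesmosomes, Itgb4, had 939.6, 983.1, 1593.8 and 2872.4 against 212.2 in MEF. The others were Perp, Dsp, Dsc2 (desmosomes), Lama3 (a laminin chain), Esrp2 (an epithelial splicing factor), Ehf (an epithelial ETS factor), St14 (a membrane protease) and its inhibitor Spint2. Dsc2 and Spint2 lost the count with the arrays centred, and Spint2 also after quantile normalization. Cdh3, P-cadherin, was the lower one, at 389.8, 128.5, 216.8 and 134.8 against 2947.6 in MEF.

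Among 16 genes of the cornified envelope and epidermis, 2 were higher (12.5%, against 7.35% of all genes). Tgm3, a transglutaminase of the epidermis and hair, had 1893.0 and 2781.0 on the CD49d+ arrays and 817.4 and 1701.1 on the CD73+ arrays, against the floor in MEF, at least 8.17-fold. Krt17, a keratin of hair follicles and injured skin, had 801.6 and 758.4 at day 9 and 222.1 and 209.6 at day 6, against the floor in MEF, and it no longer reached 2-fold on every poised array with the arrays centred. The basal keratinocyte factor Trp63 was at the floor on all 5 arrays, and Krt14, a basal keratin, had 162.6, 211.8, 252.3 and 239.3 on the poised arrays against 181.0 in MEF.

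Of 20 neural genes measured, 8 were higher on all 4 poised arrays and none lower. Besides Stmn2 and Trh they included Nefl, a neurofilament chain, with 836.6, 550.7, 1757.3 and 1150.7 on the poised arrays against the floor in MEF, and Tac2, the neurokinin B precursor, with 1068.5, 588.9, 1610.8 and 2902.0 against 142.8 in MEF. The others were Sox1, Fabp7, Crmp1 and Syt1. Pax6, a neural progenitor factor, and the neuronal tubulin Tubb3 stayed within 2-fold of MEF, with mean log2 differences of 0.17 and -0.32. Ncam1, also on this list, went the other way, with 1350.1, 1486.6, 946.1 and 1956.1 on the poised arrays against 3775.9 in MEF. It missed 2-fold lower on the day 9 CD73+ array and reached it on all 4 with the arrays centred. The median log2 difference of the 20 genes was 0.32. Of 23 surface markers followed in reprogramming, 6 were higher, among them Alpl, the alkaline phosphatase used to stain stem cells (823.3, 777.7, 1074.8 and 1353.7 on the poised arrays, at the floor in MEF), and Prom1, known as CD133 (532.1 to 680.4 on the poised arrays, 134.8 in MEF). The 3 lower ones were Thy1, Pdpn and Icam1. The shares of this list were 26.1% higher and 13.0% lower, against 7.35% and 7.7% of all genes.

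**Figure D2:**
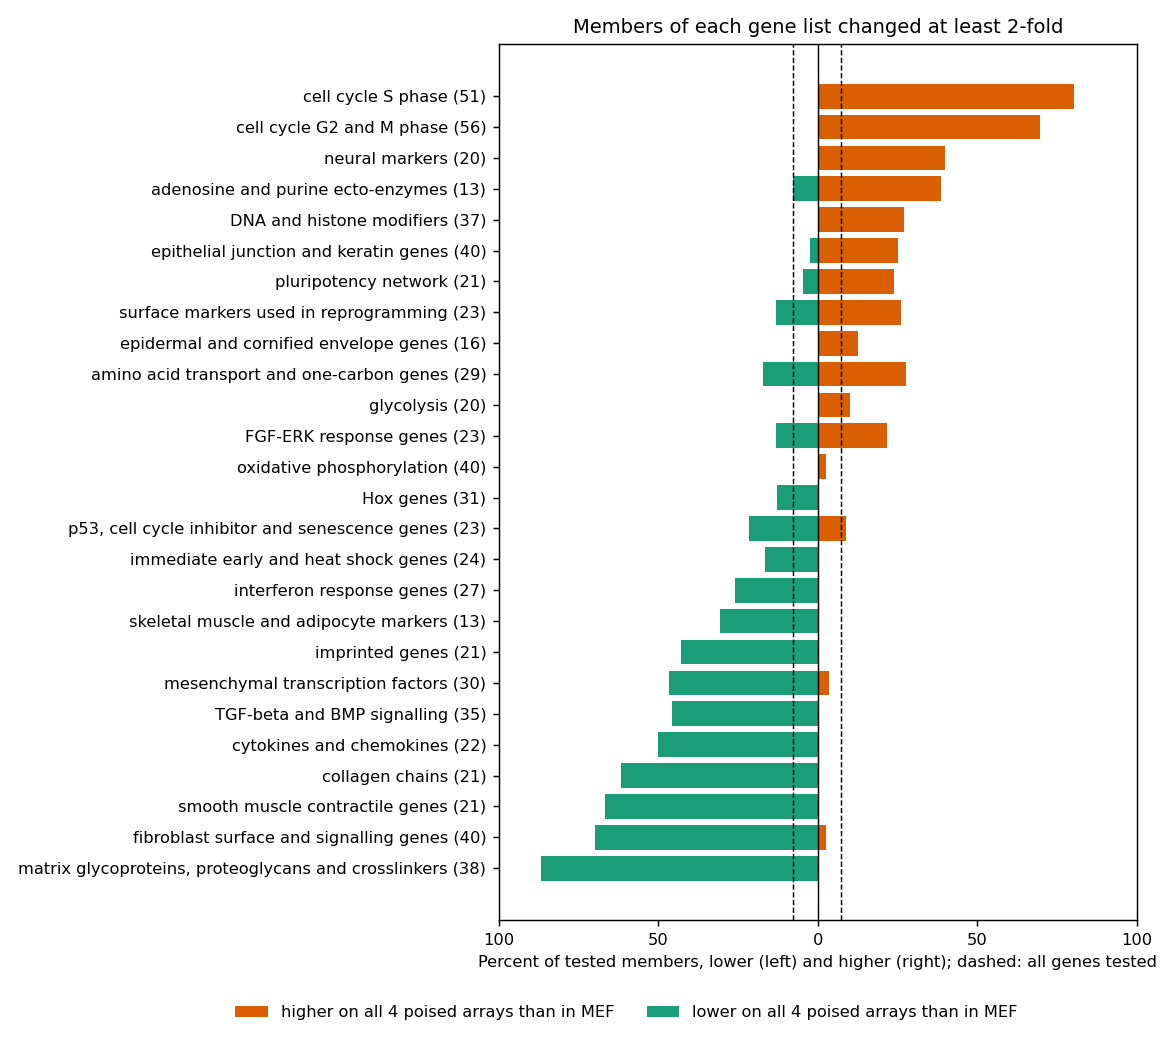
Percent of the measured members of each gene list that were at least 2-fold lower (left, green) or higher (right, orange) on all 4 poised arrays than in MEF, with the number measured in brackets. Dashed lines mark all 13436 genes, at 7.7% lower and 7.35% higher. S phase genes stand furthest to the right at 80.4%, and matrix glycoproteins, proteoglycans and crosslinkers furthest to the left at 86.8%.

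Metabolic genes were mixed. Of 29 amino acid transport and one-carbon genes, 8 were higher on all 4 poised arrays and 5 lower. The shares were 27.6% and 17.2%, against 7.35% and 7.7% of all genes. Slc7a3, a transporter of cationic amino acids, had 1714.5, 1566.0, 3376.2 and 2260.7 on the poised arrays against 181.9 in MEF. Gldc, the glycine decarboxylase of mitochondria, had 615.7, 813.6, 835.1 and 562.2 against the floor in MEF, and with Shmt1 it was joined by the folate enzymes Mthfd1 and Mthfd1l. The lower members were Aldh1l2 (a mitochondrial folate enzyme), Chac1, Ddit3 and Trib3 (stress response genes) and Slc1a3 (a glutamate transporter). Ddit3, for example, had 237.9, 212.2, 175.7 and 214.5 on the poised arrays against 899.4 in MEF.

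Of 20 glycolysis genes, 2 were higher on all 4 poised arrays, a share near the 7.35% of all genes, and none was lower. These were the hexokinase Hk2, with 646.3, 957.9, 857.4 and 920.0 on the poised arrays against 195.9 in MEF, and Pdk1, a kinase that holds pyruvate back from the mitochondria, with 759.1, 921.0, 885.8 and 770.2 against 289.8 in MEF. Of 40 genes of oxidative phosphorylation, only Ndufb8, a complex I subunit, was higher, with 381.2, 343.9, 402.4 and 493.4 on the poised arrays against 161.5 in MEF, and none was lower. The share of higher genes, 2.5%, lay below the 7.35% of all genes. The median log2 difference of the 40 was 0.21. With each array centred on its own median, Ndufb8 no longer reached 2-fold on every poised array. Of 13 adenosine and purine genes, 5 were higher (Nt5e, Alpl, P2rx7, Slc29a2 and Enpp3) and 1 lower (P2rx4). The shares were 38.5% and 7.69%, against 7.35% and 7.7% of all genes, and Nt5e was a sorting marker. The ATP-gated channel P2rx7 had 541.2, 480.7, 539.4 and 803.9 on the poised arrays against 135.7 in MEF, and its relative P2rx4 had 833.5, 694.6, 817.3 and 769.1 against 1754.3 in MEF.

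On the lower side, the matrix genes had the largest share of lower members among the gene lists examined, 86.8% against 7.7% of all genes. Collagen chains had 61.9%. Of 38 matrix glycoproteins, proteoglycans and crosslinkers, 33 were at least 2-fold lower on all 4 poised arrays and none higher, with a median log2 difference of -2.89, and of 21 collagen chains, 13 were lower and none higher, with a median of -2.19. Aspn, the leucine-rich proteoglycan asporin, had 235.3 and 157.9 on the CD49d+ arrays and the floor on both CD73+ arrays, against 6094.4 in MEF, 25.9-fold lower or more. Ogn, its relative osteoglycin, had 372.8, 166.5, 167.0 and 128.6 on the poised arrays against 5832.5 in MEF, a mean log2 difference of -4.93 ± 0.67. Lum (lumican) had 105.3 and the floor on the other 3 poised arrays, against 2708.0 in MEF, and Mfap5, a microfibril protein, 106.5 and the floor on the other 3, against 1358.5 in MEF.

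Lox, which crosslinks collagen and elastin, had 978.9, 476.5, 467.2 and 437.1 on the poised arrays against 8430.7 in MEF. Among the collagens, Col1a1 had 1537.4 and 719.7 on the CD49d+ arrays and 351.5 and 303.6 on the CD73+ arrays, against 6664.0 in MEF, 4.33- to 22.0-fold lower. Col1a2, the other chain of type I collagen, had 976.1, 318.8, 416.4 and 263.8 against 5617.6 in MEF, and Col3a1, type III collagen, had 336.1, 192.7, 254.0 and 190.6 against 2862.5 in MEF. Col8a1 and Col5a2 were 5.72- to 18.5-fold and 7.35- to 11.1-fold lower. P4ha3, a prolyl hydroxylase that modifies collagen, had 162.8, 108.8, 122.9 and 128.0 on the poised arrays against 2342.1 in MEF. Within each of these genes the MEF value lay above all 4 poised values.

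At the far end were 141 genes at the floor on all 4 poised arrays, of which the 10 with the highest MEF value are named. Mmp13, whose promoter is printed above, had 3453.8 in MEF and was thus at least 34.5-fold lower. C1qtnf3, a secreted C1q-related protein, had 2848.7 in MEF, and Pappa, a protease that frees insulin-like growth factors from a binding protein, 2060.3. Lgr5, a receptor for R-spondins known from intestinal stem cells, had 1922.7 in MEF, Rtl3 1897.4, Itgbl1 1866.8 and Adh1, an alcohol dehydrogenase, 1781.8. Cpa6, Pgm5 and Cxcl15 were at least 16.9-, 13.9- and 11.4-fold lower. A further 187 lower genes had 1 to 3 poised arrays at the floor, and 706 were above it on all 5 arrays.

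**Figure D3:**
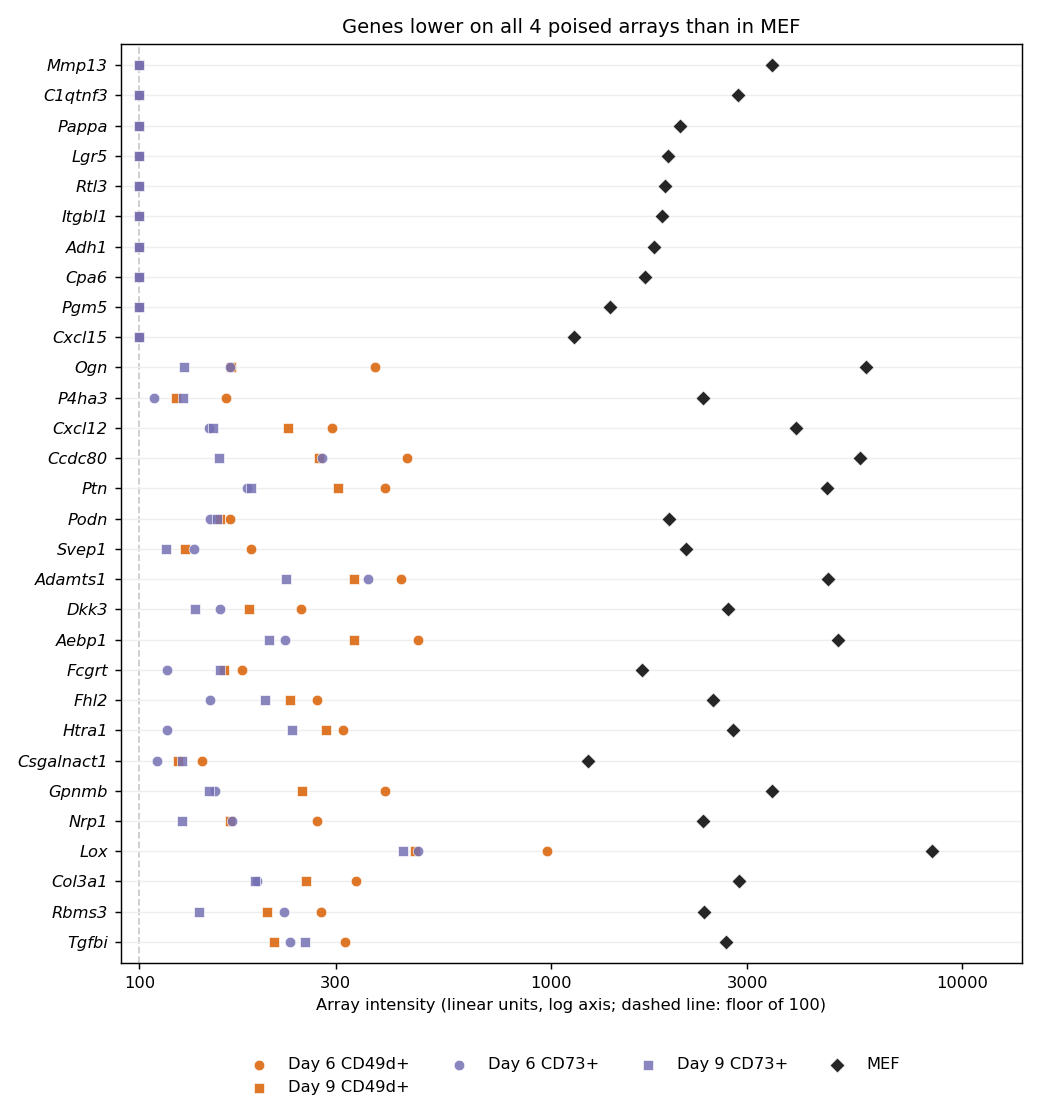
Array intensity (linear units on a log axis) of the 30 named genes lower on the poised arrays than in MEF, with 1 point per array in the same colours and symbols as for the higher genes. In the 10 genes at the top the 4 poised points coincide at the floor of 100 (dashed line), and in each of the 30 genes the 4 poised points lie to the left of the MEF diamond. In most of the others the day 6 CD49d+ point lies nearest to MEF.

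Surface and signalling genes of fibroblasts followed. Of 40 measured, 28 were lower on all 4 poised arrays and 1 was higher. The shares were 70.0% and 2.5%, against 7.7% and 7.35% of all genes. Thy1, the classic fibroblast surface marker, had 784.9, 145.7, 314.8 and 136.1 on the poised arrays against 4925.5 in MEF. Pdgfrb, a receptor for platelet-derived growth factor, had 469.0 and 214.3 on the CD49d+ arrays and the floor on both CD73+ arrays, against 4806.0 in MEF, and Pdgfra had 236.5 and 136.7 and the floor on both CD73+ arrays, against 2775.4 in MEF. Itga11, a collagen receptor chain, had 119.9 and the floor on the other 3 poised arrays, against 2191.3 in MEF. Cd44, the hyaluronan receptor, was the higher one, with 819.8, 912.6, 855.3 and 1544.9 against 396.8 in MEF, and it did not reach 2-fold on every poised array after quantile normalization or centring.

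Of 21 genes listed as contractile genes of smooth muscle, 14 (66.7%, against 7.7% of all genes) were lower and none higher. The median log2 difference of the 21 was -1.95. Cultured fibroblasts use such genes for stress fibres. The 14 include Ccn1, Ccn2 and Ankrd1, which do not encode contractile proteins, and Ccn2 is also counted in the TGF-beta list below. Tagln, an actin-bundling protein, had 813.6 and 426.7 on the CD49d+ arrays and 158.7 and 173.2 on the CD73+ arrays, against 4038.7 in MEF. Myl9 had 614.2, 327.2, 467.4 and 302.9 against 3886.3 in MEF, and Cnn1, a calponin, 248.3, 100, 146.7 and 106.1 against 1699.4 in MEF. Acta2, smooth muscle actin, missed the count because the day 6 CD49d+ array had 5171.8 against 10220.7 in MEF, while the CD73+ arrays had 463.0 and 449.5. The CArG box was found in 3 of 10 matched promoters of the lower genes of this list, against 1.59% of all promoters. Myl9, which was picked for this motif, is among them.

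Of 30 mesenchymal transcription factors, 14 were lower on all 4 poised arrays and 1 higher. The shares were 46.7% and 3.33%, against 7.7% and 7.35% of all genes. Ebf1 had 283.7, 240.4, 172.5 and 251.1 on the poised arrays against 1510.7 in MEF, and Osr1, a factor of embryonic connective tissue, 1201.2, 906.7, 591.9 and 700.4 against 4353.7 in MEF. Sox9, the factor of cartilage, had 149.8, 150.6, 145.4 and 138.8 against 865.4 in MEF, Scx, the factor of tendon, 127.0, 100, 102.9 and 100 against 391.4 in MEF, and Twist1 322.9, 230.1, 239.7 and 171.0 against 732.0 in MEF. Foxd1, a forkhead factor of stromal progenitors, was the higher one, at 793.4, 939.7, 702.3 and 794.5 against 133.0 in MEF. Zeb1, a repressor of E-cadherin, had a mean log2 difference of -0.79 and did not reach 2-fold on every poised array.

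Of 35 genes of TGF-beta and BMP signalling, 16 (45.7%, against 7.7% of all genes) were lower on all 4 poised arrays and none higher. The median log2 difference of the 35 was -0.97. Tgfbi, a matrix protein named for its induction by TGF-beta, had 315.7, 231.9, 212.4 and 252.6 on the poised arrays against 2659.8 in MEF. The ligand Bmp4 had 272.0, 258.2, 189.4 and 240.4 against 1910.9 in MEF, and the co-receptor Tgfbr3 178.7, 125.8, 146.3 and 110.5 against 1194.5 in MEF. Among the lower members were also the ligands Tgfb1 and Tgfb3, the receptor Tgfbr2 and the target Ccn2, with mean log2 differences of -2.52, -2.52, -1.83 and -2.60. The receptors Tgfbr1 and Bmpr2 and the transducer Smad3 had mean log2 differences between -0.25 and 0.17.

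Cytokines and growth factors were lower in 11 of 22 cases and higher in none. Cxcl12, the stromal chemokine that attracts CXCR4-bearing cells, had 293.1, 148.0, 229.1 and 150.7 on the poised arrays against 3933.8 in MEF, and Hgf, hepatocyte growth factor, was at the floor on all 4 poised arrays against 543.7 in MEF. Cxcl5 and Vegfd were 6.14- to 8.95-fold and 5.87- to 8.45-fold lower. Of 27 interferon response genes, 7 (25.9%, against 7.7% of all genes) were lower and none higher. Ifit1 had 163.8, 103.2, 111.1 and 132.9 on the poised arrays against 1194.4 in MEF, and Usp18, which removes the ubiquitin-like protein ISG15, had 463.6, 182.9, 193.5 and 395.7 against 1661.5 in MEF.

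Of 21 imprinted genes, 9 (42.9%, against 7.7% of all genes) were lower and none higher. Igf2, the growth factor made from the paternal allele, had 434.7, 223.9, 290.1 and 221.7 on the poised arrays against 2436.4 in MEF, and Peg3 had 875.8, 909.6, 637.5 and 631.6 against 4290.4 in MEF. Rian, a maternally expressed noncoding RNA, had 376.3, 225.0, 187.8 and 384.5 against 1959.6 in MEF. Of 31 Hox genes, which record the body position of the fibroblasts, 4 were lower and none higher. That is 12.9%, against 7.7% of all genes, and rests on 4 genes only. Hoxc8 had 398.4, 406.2, 380.2 and 388.4 against 1600.8 in MEF, and Hoxc6 475.6, 465.3, 452.7 and 464.1 against 1163.8 in MEF, with the 4 poised arrays nearly equal in both. Of 24 immediate early and heat shock genes, 4 were lower (Gadd45b, Klf6, Ier3 and Dusp1), 16.7% against 7.7% of all genes, and none higher. With the arrays centred 7 were lower. Of 13 skeletal muscle and adipocyte genes, 4 were lower (Fabp4, Acta1, Lpl and Pparg), 30.8% against 7.7% of all genes, and none higher. Germ cell and trophoblast lists had 2 and 7 measured members and none that reached 2-fold on all 4 arrays. Of 9 endothelial genes Tek was higher and Flt1 and Erg lower, and of 5 macrophage and blood genes Cd53 was lower.

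**Figure D4:**
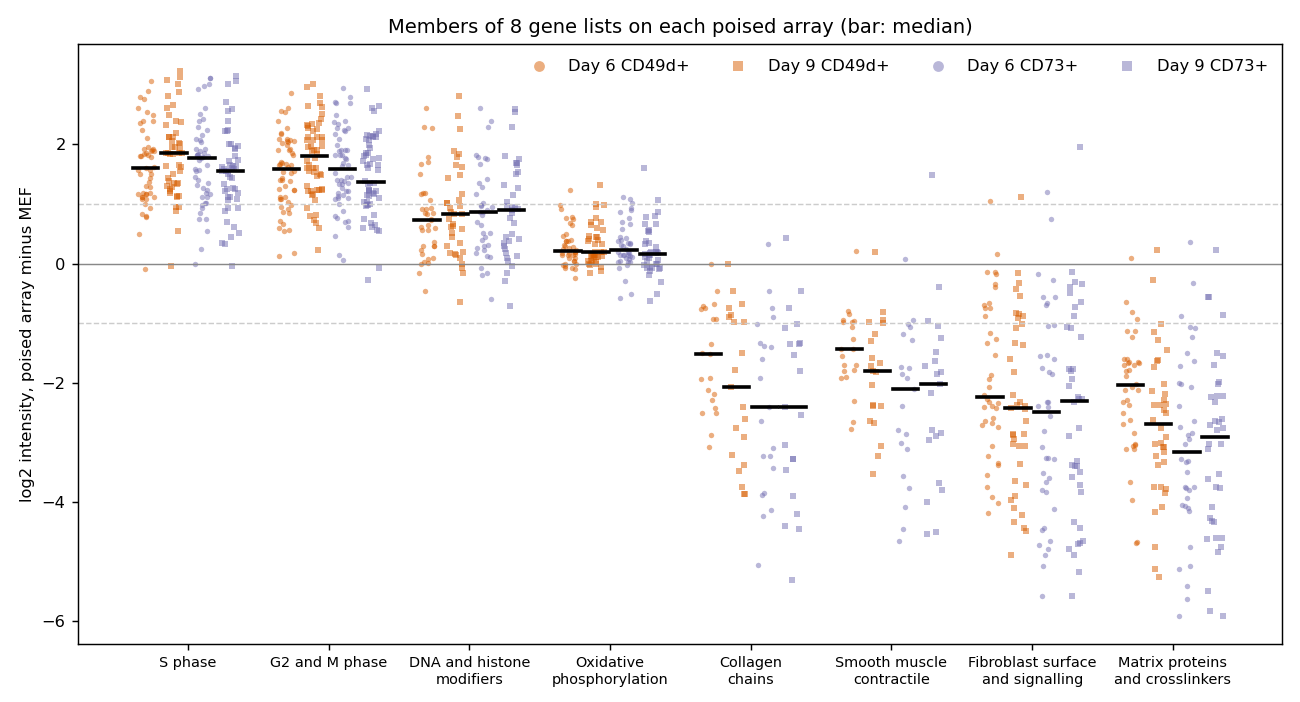
Difference of log2 intensity from MEF for each member of 8 gene lists, shown apart for the 4 poised arrays (circles day 6, squares day 9, orange CD49d+, purple CD73+), with black bars at the median. Dashed lines mark a difference of 1 log2 unit either way. The medians of the S phase list lie between 1.56 and 1.85 on the 4 arrays, while most members of the matrix list lie below 0.

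Many genes reached 2-fold on only some of the 4 poised arrays. At least 2-fold higher than MEF were 1197, 1567, 1426 and 1503 genes on the 4 arrays, and 1131, 1408, 1337 and 1418 were lower. Besides the genes that reached 2-fold on all 4, 396, 316 and 239 were higher on exactly 1, 2 or 3 arrays. For lower genes these counts were 246, 213 and 162. No gene was 2-fold higher on 1 poised array and 2-fold lower on another. Below 2-fold the sign could differ between arrays, as in Krt14 (log2 differences of -0.16, 0.23, 0.48 and 0.4). All arrays share the MEF array, so these counts are not independent of each other. The median SD over the 4 arrays was 0.166 log2 units for the higher genes, whose median difference was 1.65, and 0.19 for the lower genes, whose median difference was -1.82. These genes were selected for reaching 2-fold on all 4 arrays, which favours a small SD. The lower ones include 141 genes at the floor on all 4, where the arrays cannot differ. At 4-fold the counts were 190 higher and 319 lower, and at 8-fold 43 and 76. Just inside the 2-fold threshold lay Srgap1 and Dsc2 (smallest log2 difference 1.0005 and 1.0006), and just outside it Paxip1 and Rbmxl1 (0.9991 and 0.9988).

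The balance of higher and lower genes depended on how the arrays were scaled. As deposited, 48.8% of the genes that reached 2-fold on all 4 arrays were higher. With each array centred on its own median, 762 were higher and 1265 lower, so that 37.6% were higher, and the median of all genes moved to -0.1299. With quantile normalization 937 were higher and 1078 lower, 46.5% higher, with a median of 0.0269. All 762 higher genes under centring were among the 987, and all 1034 lower genes stayed lower.

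Some genes differed between the gates on both days. Of the 1034 lower genes, 18 (1.74%) were at least 2-fold higher in CD49d+ than in CD73+ cells at both days and none the reverse. Of all 13436 genes, 27 (0.201%) were higher and 19 (0.141%) lower in this way. Tnc, the matrix protein tenascin C, had 1911.7 and 831.8 on the CD49d+ arrays of days 6 and 9, while the CD73+ arrays had 143.5 and 125.0 and MEF 7089.6. Postn, periostin, had 2041.8 and 1262.6 on the CD49d+ arrays, 252.8 and 349.7 on the CD73+ arrays and 8566.7 in MEF. S1pr3, a sphingosine phosphate receptor, had 1236.3 and 576.4 on the CD49d+ arrays, 162.7 and 195.1 on the CD73+ arrays and 5884.2 in MEF. Among the other 15 were Col12a1, Thy1, Tagln, Pdgfrb, Col1a1 and Thbs1.

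Of the 987 higher genes, 3 (0.304%) were at least 2-fold lower in CD49d+ than in CD73+ cells at both days and none the reverse. These were Urb2, with 1720.9 and 1993.7 on the CD49d+ arrays, 3790.8 and 4343.9 on the CD73+ arrays and 835.4 in MEF, Sox1, a neural progenitor factor, with 325.9 and 471.3 on the CD49d+ arrays and 724.5 and 1074.3 on the CD73+ arrays, and the kinase Camk1d, the last 2 at the floor in MEF. They and the genes of the next sentences were chosen after their values were seen. Between days, 5 higher genes were at least 2-fold higher at day 9 than at day 6 in both gates, namely Ehf, Krt17, the FGF-binding protein Fgfbp1, Ly6g6c and Nefl. Ehf had 854.3 and 640.7 at day 9 and 256.8 and 229.4 at day 6, in CD49d+ and CD73+ cells. Arhgef33, a higher gene, and Arhgap29, a lower one, were at least 2-fold lower at day 9.

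The difference between the gates was tested in a limma fit of the 8 reprogramming arrays with terms for population and day, in which the error is the disagreement between days. A gene passed where its p, adjusted by the method of Benjamini and Hochberg, was under 0.05. Over 13313 genes, 1 passed as higher (0.00751%) and 3 as lower (0.0225%) in CD49d+ than in CD73+ cells, and 3212 had an unadjusted p under 0.05. These counts depended on the scaling, with 125 higher and 161 lower after quantile normalization and 268 and 379 with the arrays centred. None of the 4 genes called as deposited (Scarna2, A630089N07Rik, Gabra2 and Mctp1, named after their values were seen) was among the genes that differed from MEF on all 4 arrays. At the unadjusted level, 238 of the 957 genes lower than in MEF that entered the fit were higher in CD49d+ than in CD73+ cells (24.9%) and 17 lower (1.78%). Of the 987 genes higher than in MEF, 71 were higher (7.19%) and 164 lower (16.6%) in CD49d+ cells. Over all 13313 genes, 1743 were higher (13.1%) and 1469 lower (11.0%).

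For most genes that differed from MEF, no difference between poised and CD73- cells passed the test. In the same limma fit, 953 of 13313 genes (7.16%) were higher and 646 (4.85%) lower in the mean of CD49d+ and CD73+ cells than in CD73- cells, and 4055 had an unadjusted p under 0.05. This fit uses the same poised arrays as the comparison with MEF, so the 2 are not independent. Of the 987 genes higher than in MEF, 211 (21.4%) were also above CD73- cells and 57 (5.78%) below them, with a median log2 difference of -0.063 between poised and CD73- cells. Of the 957 lower genes in the fit, 102 (10.7%) were also below CD73- cells and 28 (2.93%) above them, with a median of -0.097.

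Only 2 S phase genes and 1 G2 and M gene among the higher ones passed against CD73- cells, the 2 below and the 1 above. None of the 14 lower members of the contractile list passed, and 5 of the 33 lower matrix genes were below CD73- cells and 2 above. Uhrf1, for instance, differed by 0.04 ± 0.0817 log2 units (SE, adjusted p = 0.84), and Tagln by -0.07 ± 0.401 (adjusted p = 0.953). A p above the threshold does not show that the 2 kinds of cell were alike.

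Genes above both MEF and CD73- cells included all 4 markers of poised cells. Nt5e had 331.9 and 292.4 in CD73- cells at days 6 and 9, a log2 difference of 3.33 ± 0.141 for poised minus CD73- cells (adjusted p = 0.00243), and Itga4 had 152.7 and 169.6 (3.12 ± 0.143, adjusted p = 0.0031). Nt5e was the sorting marker between these populations, and Itga4 was the sorting marker of the CD49d+ gate only. Among genes not sorted on, Trh led with 106.7 and 535.1 in CD73- cells (3.51 ± 0.467, adjusted p = 0.0167), followed by Tgm3 with 100 and 214.6 (3.49 ± 0.127, adjusted p = 0.00243). Sbspon had 167.2 and 283.5 in CD73- cells (3.48 ± 0.263, adjusted p = 0.00586), Gna14 100 and 303.0 (3.45 ± 0.337, adjusted p = 0.00846) and Bmx, a Tec-class tyrosine kinase, 112.6 and 134.7 (3.28 ± 0.0899, adjusted p = 0.00243). Nr0b1 had 405.9 and 993.3 in CD73- cells, between MEF and the poised arrays (2.91 ± 0.265, adjusted p = 0.00768). Klk1, a kallikrein protease, and Tac2 completed the 10, both highest on the day 9 CD73+ array. Tgm3, Gna14 and Klk1 had CD73- values at the floor. Differences from such values, as also for Bmp4 below, are lower bounds, and their SE and p-values do not allow for this.

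Genes above MEF but below CD73- cells were higher in both reprogramming populations and highest in the CD73- cells. Slc6a15, a neutral amino acid transporter, had 461.8, 767.9, 441.0 and 472.4 on the poised arrays, against 1504.2 and 1081.3 in CD73- samples and 105.0 in MEF (poised minus CD73- -1.29 ± 0.16, adjusted p = 0.0139). Car12, a membrane carbonic anhydrase, had 602.2, 979.9, 830.1 and 935.1 on the poised arrays, against 2042.4 and 1904.7 in the CD73- samples and 107.9 in MEF (-1.26 ± 0.132, adjusted p = 0.0098). Gatm, the first enzyme of creatine synthesis, had 522.0, 590.1, 537.2 and 563.4 on the poised arrays, against 1370.8 and 1155.1 in the CD73- samples and the floor in MEF (-1.19 ± 0.122, adjusted p = 0.00935). Slc29a2, a nucleoside transporter, and Ak4 showed the same order, with log2 differences from CD73- cells of -0.85 ± 0.101 (adjusted p = 0.0124) and -0.81 ± 0.129 (adjusted p = 0.0249).

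In 28 genes the poised cells lay below MEF but above CD73- cells. Cpq, a secreted carboxypeptidase, had 514.2, 487.2, 498.5 and 495.2 on the poised arrays, against 194.8 and 202.6 in the CD73- samples and 2413.4 in MEF (poised minus CD73- 1.33 ± 0.062, adjusted p = 0.00312). Bmp4 had 100 and 121.4 in CD73- cells (1.11 ± 0.174, adjusted p = 0.0239), and Pla2g7, which cleaves platelet-activating factor, was at the floor in both CD73- samples, with 252.8, 186.3, 527.3 and 360.7 on the poised arrays and 1152.4 in MEF. Genes below both included Ogn, with 1441.0 and 1227.0 in CD73- cells (-2.8 ± 0.241, adjusted p = 0.00696), Mme, the membrane protease neprilysin, with 1497.1 and 1346.0 in CD73- cells and 1460.9 in MEF (-1.9 ± 0.195, adjusted p = 0.00932), and Ptn, the growth factor pleiotrophin, with 720.7 and 1050.4 in CD73- cells (-1.78 ± 0.193, adjusted p = 0.0104). Mme was thus lower in poised cells than in MEF and CD73- cells, which had similar values.

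**Figure D5:**
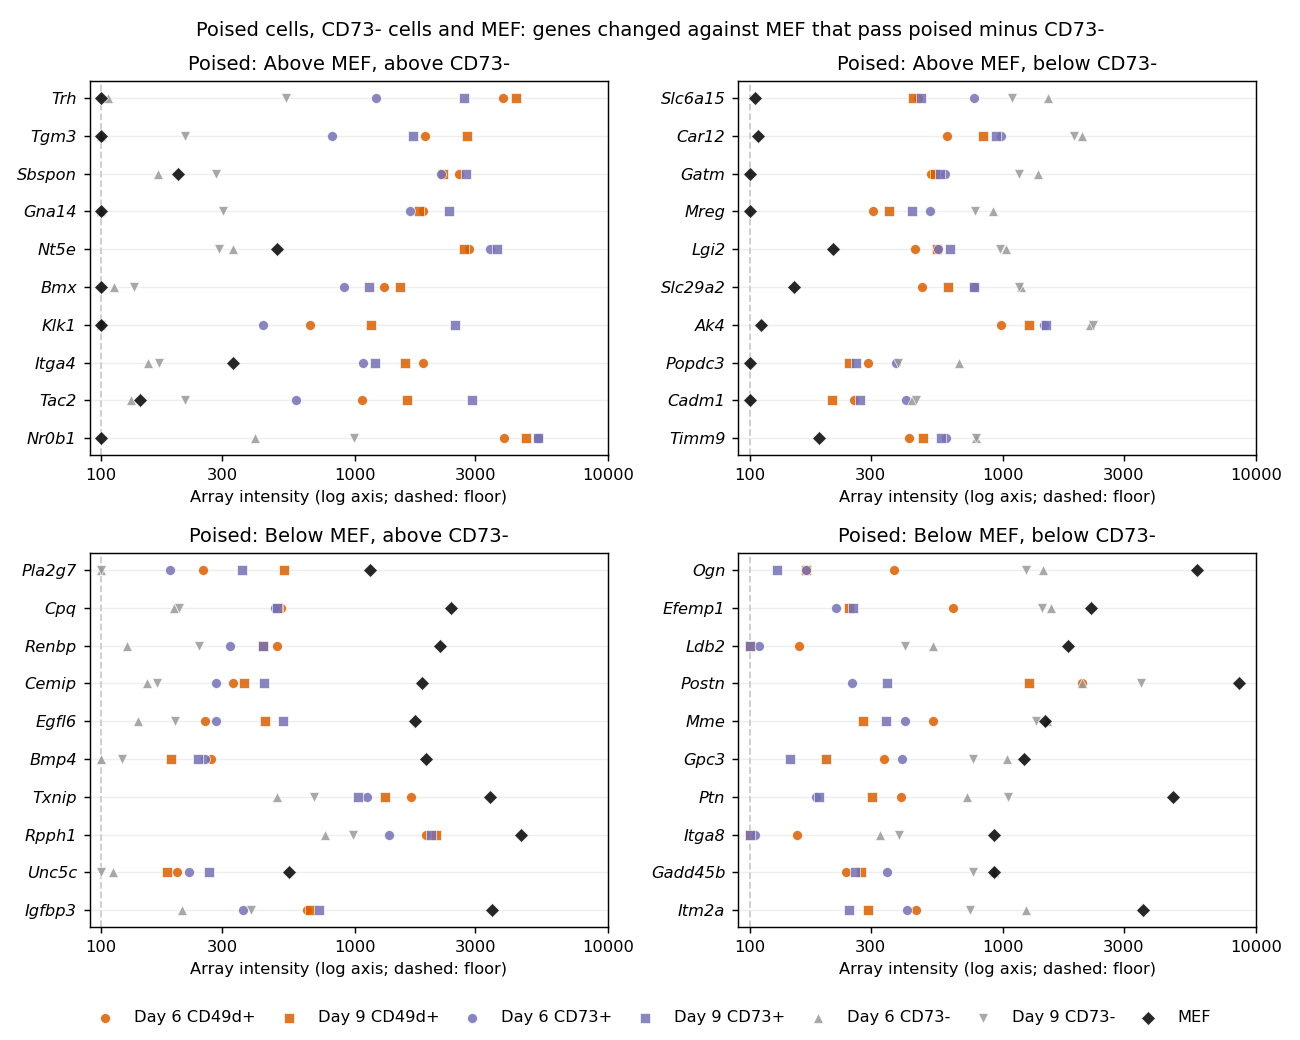
Array intensity (log axis) of 40 genes that differed from MEF on all 4 poised arrays and passed the limma test of poised minus CD73- cells, in 4 panels by whether poised cells lay above or below each. Orange and purple points are CD49d+ and CD73+ arrays, gray triangles CD73- arrays (pointing up at day 6, down at day 9) and black diamonds MEF. In the upper left panel Nt5e and Itga4, the sorting markers, have CD73- points to the left of MEF, while the CD73- points of Nr0b1 lie between MEF and the poised points.

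The number of calls against CD73- cells changed when single arrays were left out. For an unsorted array this cannot show dependence on that array. The other unsorted array then has a term of its own, so the contrast rests on the 6 sorted arrays. Fitted alone, these called 195 of the genes higher than in MEF above CD73- cells and 33 below. The counts that follow are over all genes. Without the day 6 CD73- array there were 39 above and 12 below, without the day 9 CD73- array 118 and 13, without the day 9 CD73+ array 182 and 31, and without the day 6 CD73+ array 207 and 43. Without the day 9 unsorted array there were 382 and 188, without the day 6 CD49d+ array 491 and 295, and without the day 9 CD49d+ array 963 and 812. Each such fit has fewer residual degrees of freedom and assumes that a lone array varies like the others.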

How the data were processed

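Total RNA was labelled with an Affymetrix whole-transcript terminal labelling kit and hybridised to Affymetrix gene arrays, per the labels' protocols, with 1 array for each of the 11 groups. The deposited values are intensities on a linear scale for 41345 probe sets, which the authors made with Partek per the submitters' processing notes. The Partek version, summarisation, background correction and scaling used are not given in the labels, and no value lies below 100. The number of arrays limits the precision.

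Log2 of the deposited intensity was taken with no further scaling. Probe sets were named from the GEO platform annotation with symbols updated through RefSeq (GRCm38.p6): 23521 had 1 symbol, 1814 several and 16010 none, and only the first kind was used. They name 22180 genes. Of the probe sets of 1 gene, the one with the highest mean over the 11 arrays was kept. Genes at the floor on all 5 arrays were left out.

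A gene counted where all 4 differences from MEF were at least 1 log2 unit, which carries no test. Poised minus CD73- cells and CD49d+ minus CD73+ cells were tested with limma 3.58.1 (R 4.3.3, lmFit and eBayes) on the 8 reprogramming arrays, with population and day as terms, 3 residual degrees of freedom and a prior of 2.12. The threshold was an adjusted p (Benjamini-Hochberg) of 0.05. These p-values measure only the agreement between the 2 days. Both procedures were tested on simulated data. Python 3.11.15, pandas 2.3.3 and matplotlib 3.10.9 were used for counts and plots.

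The groups, gene lists, tests and naming rules were chosen with earlier results of these data known. Genes were named by rank, leaving out predicted genes, small RNAs and receptor or gene segments: the 20 higher and 20 lower genes with the largest smallest difference among those above the floor on all 5 arrays, the 10 with MEF at the floor and the highest poised minimum, the 10 with all poised arrays at the floor and the highest MEF value, up to 4 members of each list per direction, the 10 with the largest difference in each class against CD73- cells, the markers and the factors. Other names are list members. Alternatives were quantile normalization, centring of arrays, other thresholds, a raised floor, the mean over probe sets, other filters, fits without unsorted arrays or without day, and leaving out each array.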

Additional observations from a re-analysis of the deposited data

How the results depend on the processing

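No paired analysis was possible because each group holds 1 array and there are no replicate numbers. In the limma fits the day term sets populations against each other within each day, and the fit without it is given below. Against MEF, a threshold of 1.5-fold gave 2008 higher and 1821 lower genes and one of 4-fold 190 and 319. With the floor raised to 200 there were 800 and 836, and with the mean over probe sets 955 and 1007. Leaving out 1 of the 4 poised arrays gave 1016 to 1102 higher and 1046 to 1136 lower. The filters on low values could not change these counts, since a call needs at least 200 on some array. No called difference of a named gene turned its direction under these alternatives, quantile normalization or centring. This says little, since a call needs at least 1 log2 unit on all 4 arrays. Centring moved the median of all genes only from 0.0257 to -0.1299. Leaving out an array or raising the floor cannot turn a call. For poised minus CD73- cells, limma called 953 higher and 646 lower. It called 844 lower after quantile normalization, 1199 lower after centring, 410 lower with the 6 sorted arrays only and 339 lower without a filter. Leaving out 1 array gave 1 to 963 higher and 0 to 812 lower, and the lowest counts came without the day 6 unsorted array. For CD49d+ minus CD73+ cells, with 1 higher and 3 lower, quantile normalization gave 125 and 161, centring 268 and 379, the 6 sorted arrays 0 and 0, the fit without day 86 and 74 and no filter 0 and 1. Leaving out any 1 array gave 0 and 0. The cause was not tested. Of 75 named genes that passed poised minus CD73- cells, 74 no longer passed without the day 6 unsorted array, 61 without the day 6 CD73- array, 57 without the day 9 CD73- array, 48 without the day 9 CD73+ array and 45 without the day 6 CD73+ array. The losses were 25 without the day 9 unsorted array, 22 and 5 without the day 6 and day 9 CD49d+ arrays, 21 without the day term, 13 without a filter, 9 with the sorted arrays only and 1 each with quantile normalization and the mean over probe sets. The counts and losses without an unsorted array cannot show dependence on that array, since the contrast then rests on the 6 sorted arrays. Fitted alone, those arrays lost only 9 of the 75 genes. Values at the floor carry no order, and 1 MEF array leaves its own spread unknown.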
